A study of Caenorhabditis elegans with 11 samples.

Results

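The arrays described here are the 4 of 11 L4 arrays with little sperm transcript, set against the 7 with abundant sperm transcript. The study grew hermaphrodites of a pair of Caenorhabditis elegans strains to the L4 larval stage, scored by eye, and hybridized their RNA to the Affymetrix C. elegans array. BW1940, labelled dbl-1, carries the integrated transgene ctIs40 with extra wild-type dbl-1 and a sur-5::gfp marker, and its animals are long. LT186, labelled sma-6, carries sma-6(wk7), a stop codon in the type I receptor of DBL-1, and its animals are small. The low arrays were BW1940 replicates 1 and 3 and LT186 replicates 2 and 4. The high arrays were BW1940 replicates 2, 4 and 5 and LT186 replicates 1, 3, 5 and 6. No array of a wild-type strain was part of the comparison, each strain is represented by 1 line, and all animals were kept at 20 degrees on the same bacteria. Sampling was by stage for all arrays, and no hour of harvest was found in the labels or methods.

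The sets were chosen by measured values, namely the level of sperm genes such as those of the msp, ssp and spe classes, and not by a label. Every difference between low and high arrays below is therefore a description with no test. The mean log2 value of 83 sperm genes was 5.94 and 6.58 on BW1940 replicates 1 and 3 and 5.06 and 4.91 on LT186 replicates 2 and 4, against 7.62 to 8.10 on the high arrays. The array just inside the low set was BW1940 replicate 3 at 6.58, and the array just outside it was BW1940 replicate 2 at 7.62.

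A hermaphrodite germ line makes sperm first, during the last larval stage, and then turns to oocytes for the rest of its life. Over the same stage the epidermis replaces the larval cuticle with the adult one, vulva and uterus take shape, and the intestine begins to make yolk. Transcripts of these tissues are therefore not all made at the same moment of L4.

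Each value is an intensity estimate per probe set, scaled by the authors to a common level, and array medians lay between 34.2 and 40.0. Values at or below 0, which were 5.10% to 8.38% of an array, were set to 0, and 10 was added before log2 was taken, so that differences of weak genes are understated. A low-minus-high difference is the coefficient of the array set in a linear model with strain as the other term. A gene is called lower, or higher, where this difference is at most -1, or at least 1, and all 4 low arrays lie beyond all 7 high arrays. In RNA of whole animals, fewer cells of a type and less RNA per cell cannot be told apart.

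LT186 replicates 2 and 4 were more alike than any other pair of arrays, with a median absolute log2 difference of 0.114, against 0.180 for LT186 replicates 1 and 6, the next pair. The labels name them as separate biological replicates. Because they are so alike, counts are also given with the 2 averaged as 1 sample. LT186 replicate 5, a high array, stood apart from the other high arrays on the second principal component (61.7, against -29.8 to 22.4 for the other 10 arrays), which held 13.7% of the variance. The first held 53.4% and separated the sets, with the low arrays at -79.4 to -31.9 and the high arrays at 9.30 to 51.0. BW1940 replicate 3 was the low array nearest to the high ones and BW1940 replicate 5 the high array nearest to the low ones.

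Many transcripts besides those on the sperm lists differed between the sets. Of 18801 probe sets tested, 1237 were lower on the low arrays (6.58%) and 249 were higher (1.32%). Counted with 1 probe set a gene, 1032 of 14299 genes were lower (7.22%) and 182 were higher (1.27%), and these shares are the background for every list below. The median difference over all genes was 0.08, and 6058 of the 14299 lay below 0, which is the background for counts of genes below or above 0. The 1237 lower probe sets had a median level of 7.94 on the low arrays and 68.2 on the high arrays, and 696 of them lay at 10 or less on the low arrays. The 249 higher ones had a median level of 127 on the low arrays and 39.6 on the high arrays. The overlap rule fixes that all 1237 lower probe sets were below 0 within both strains. The drop was larger in LT186 than in BW1940 for 1171 of them. That count was not made over all probe sets, whose median difference was 0.05 in BW1940 and 0.11 in LT186. With LT186 replicates 2 and 4 averaged, 1200 were lower and 220 higher. Without BW1940 replicate 3, 1553 were lower and 497 higher.

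**Figure D1:**
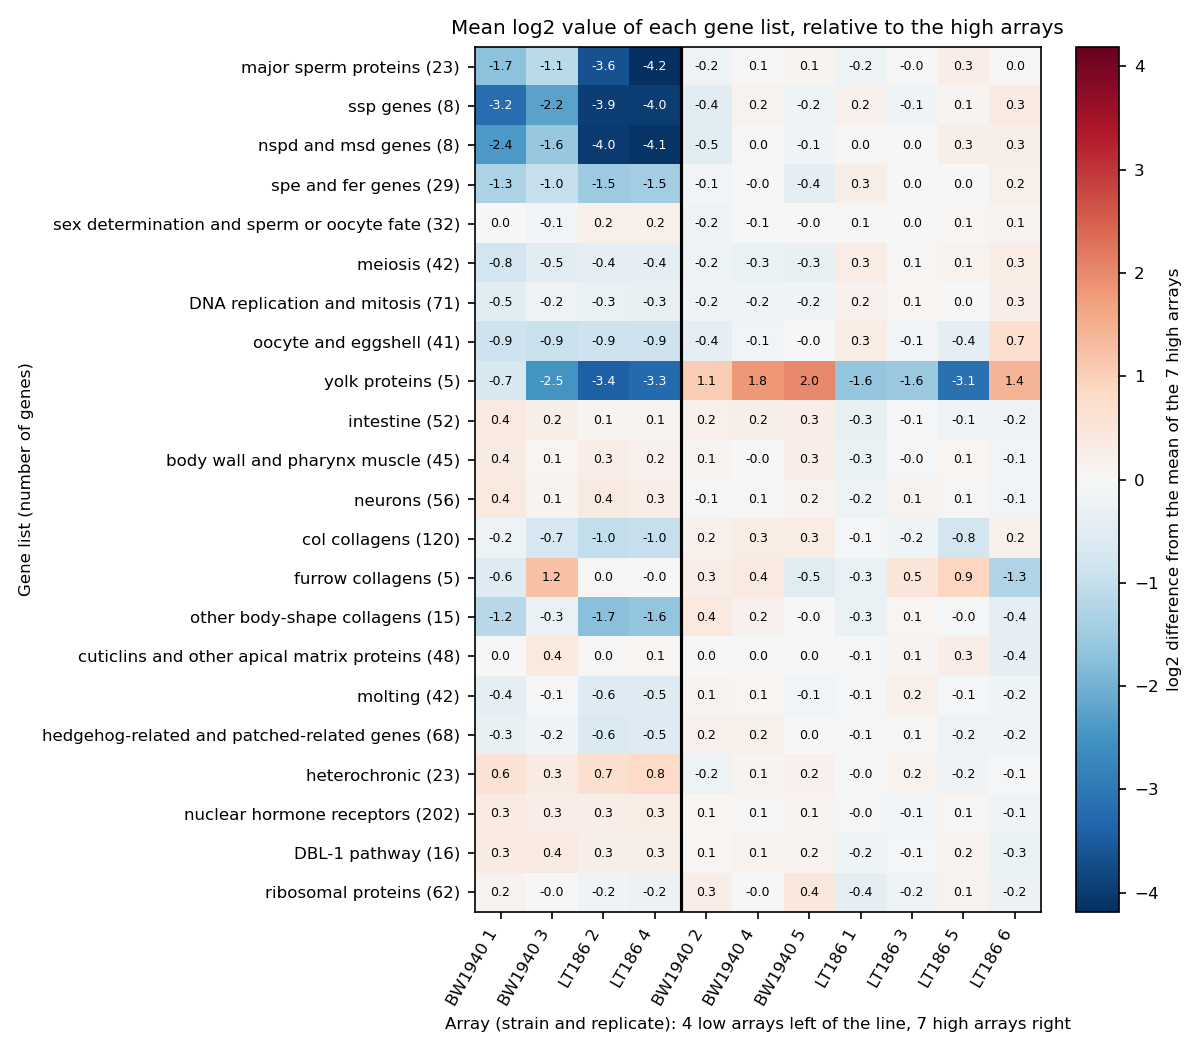
Mean log2(value + 10) of each gene list on each array, minus the mean of the 7 high arrays for that list. Columns are arrays, with the 4 low arrays left of the line, rows are gene lists with their number of genes, and blue stands for lower and red for higher. The sperm lists are blue on all 4 low arrays, and the yolk and col collagen lists are also blue on LT186 replicate 5, a high array.

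Of the 83 sperm genes, 69 were lower, a count that the choice of arrays fixed. All 23 major sperm proteins, the small cytoskeletal proteins that drive the crawling of nematode sperm, were lower, with a median difference of -2.63. The msp genes are near-identical and share probes, so that their members cannot be told apart with certainty. The msp-3 value was 564 and 858 on BW1940 replicates 1 and 3 and 152 and 108 on LT186 replicates 2 and 4, against 1385 to 1943 (median 1576) on the high arrays. Even the lowest of these was well above the floor, and both LT186 arrays were below both BW1940 arrays. The msp-142 value was 229, 362, 57.9 and 57.8 on the same 4 arrays, against 738 to 1365 (median 1116) on the high arrays.

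The ssp genes, which encode sperm-specific proteins related to the major sperm protein, were lower for 8 of 8 members, with a median of -3.60. The ssp-10 value was 66.0 and 132 on the low BW1940 arrays and 8.40 and 8.49 on the low LT186 arrays, against 387 to 563 (median 535) on the high arrays. Thus ssp-10 lay near background on both low LT186 arrays while msp-3 did not. For ssp-35 all 4 low arrays read 4.82 or less, against 114 to 325 on the high arrays. Of 8 nspd and msd genes 7 were lower, with a median of -3.37. The nspd-1 value was 56.8, 160, 4.32 and 1.04 on the low arrays, against 379 to 856 (median 705) on the high arrays.

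The spe and fer genes, named for mutants with defective sperm or fertilization, were lower for 19 of 29 members, with a median of -1.42. The spe-9 gene, for a sperm surface protein needed for fertilization, read 0.0941, 7.30, 2.15 and 3.72 on the low arrays, against 12.8 to 25.1 on the high arrays, a weak signal on every array. The spe-15 gene, for a sperm myosin, read 44.2, 79.6, 32.5 and 38.2 on the low arrays and 98.1 to 219 (median 151) on the high arrays. The spe-39 gene, which acts in vesicle transport, read 93.7, 137, 95.8 and 98.7 on the low arrays and 115 to 174 (median 150) on the high arrays, and the sets overlapped. The spe-48 difference was 0.25. Of the other 15 sperm genes 12 were lower, with a median of -3.04. Among them gsp-4, which encodes a protein phosphatase of sperm, read 28.0, 132, 10.5 and 9.70 on the low arrays and 283 to 600 (median 469) on the high arrays, and its near-identical partner gsp-3 read 38.6, 165, 14.9 and 19.4, against 321 to 742 (median 536). The trypsin inhibitor gene swm-1, known from male seminal fluid, was level, with 448 to 605 on the low arrays and 357 to 662 on the high arrays.

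Within the low set the order of the arrays was nearly the same for every class of sperm genes. BW1940 replicate 3 was above BW1940 replicate 1 for 73 of 83 sperm genes (median log2 difference 0.60), including 23 of 23 major sperm proteins. Of the 69 lower sperm genes, BW1940 replicate 3 was the highest low array for 64 and BW1940 replicate 1 for 5. Within the strains the median low-minus-high difference of the 83 genes was -1.37 in BW1940 and -3.33 in LT186. The plot of the difference within each strain shows the sperm genes below the diagonal. As each strain has 2 low arrays, and the 2 of LT186 are nearly alike, the contrast between strains was not tested.

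**Figure D2:**
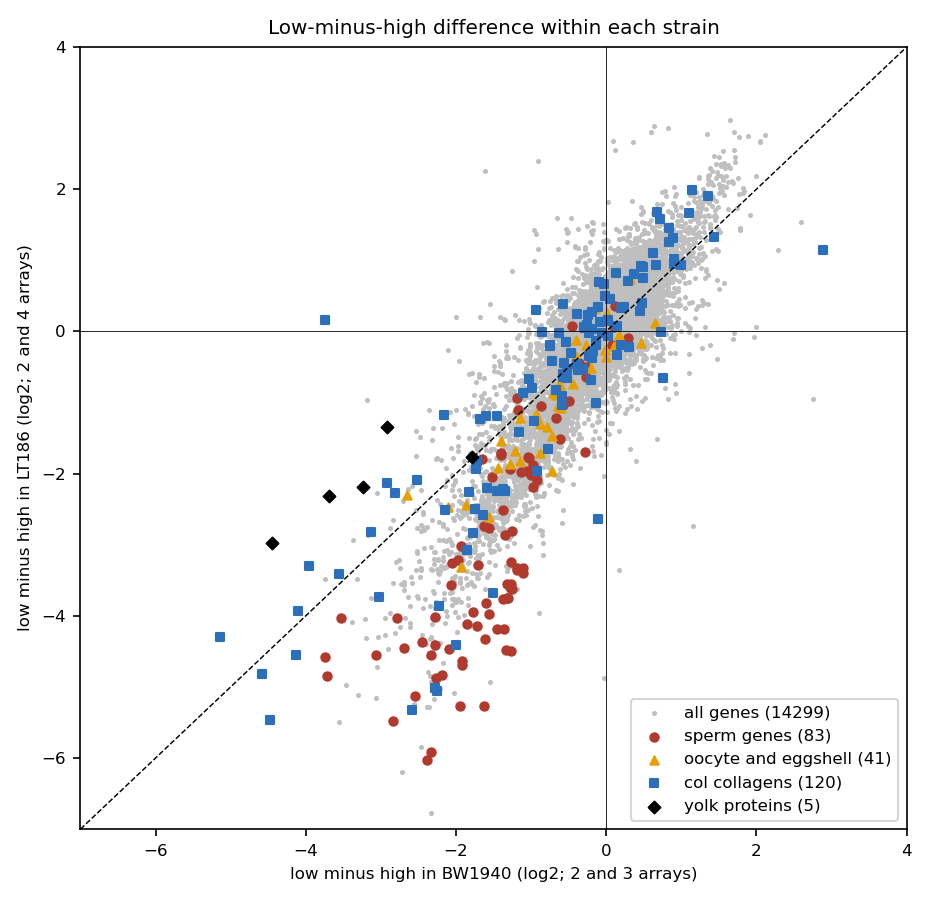
Low-minus-high difference of each gene in BW1940 (horizontal axis, log2) and in LT186 (vertical axis, log2), with sperm genes as circles, oocyte and eggshell genes as triangles, col collagens as squares, yolk proteins as diamonds and all other genes in grey. The dashed line marks equal differences. Sperm genes lie mostly below it (medians -1.37 in BW1940 and -3.33 in LT186) and the yolk proteins on or above it (medians -3.24 in BW1940 and -2.19 in LT186).

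The regulators that assign germ cells to sperm or oocyte fate did not share the pattern of the sperm genes. None of 32 such genes was lower or higher, and their median was 0.10. The fog-1 and fog-3 genes, which direct germ cells to become sperm, were among the highest of them. The fog-1 value was 82.5 and 75.1 on the low BW1940 arrays and 70.5 and 76.8 on the low LT186 arrays, against 23.7 to 83.6 (median 35.6) on the high arrays, a difference of 0.73. BW1940 replicate 5 was the high array that reached the low ones. The fog-3 value was 93.9, 123, 95.2 and 95.8 on the low arrays, against 24.7 to 97.8 (median 59.5) on the high arrays, a difference of 0.68. The spe-44 gene, whose product activates sperm genes, read 48.1, 115, 59.0 and 64.1 on the low arrays and 116 to 183 (median 139) on the high arrays. All 4 low arrays were below the high ones, by 0.96, just short of the size used for a call. The sex determination genes tra-1 and fem-3 differed by 0.27 and 0.11, with overlapping sets.

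Genes of oocytes and the eggshell were lower on the low arrays for 14 of 41 members and higher for none, with a median of -0.79. The gene for RME-2, the yolk receptor of the oocyte, read 67.6 and 76.0 on the low BW1940 arrays and 69.7 and 75.7 on the low LT186 arrays, against 140 to 453 (median 242) on the high arrays. The 4 low arrays were nearly equal, unlike for the sperm genes. The oma-1 gene, needed for oocyte maturation, read 9.21 or less on all 4 low arrays and 30.3 to 155 (median 64.5) on the high arrays. The rmd-1 value was 6.64, 15.4, 12.4 and 1.60 on the low arrays and 56.7 to 269 (median 95.1) on the high arrays. For the eggshell gene perm-2 the values were 31.8, 23.7, 17.2 and 17.2 on the low arrays and 38.0 to 388 (median 127) on the high arrays, with LT186 replicate 5 as the lowest of these. The perm-4 gene had 4 probe sets, whose differences ranged between -3.69 and 0.57, so that its level is uncertain. The mean of the list was 6.53 to 6.60 on the low arrays and 7.04 to 8.17 on the high arrays.

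Other germ line genes differed by less. The mean of the meiosis list was 5.67 to 6.08 on the low arrays and 6.15 to 6.78 on the high arrays, without overlap. Among 42 meiosis genes 39 were below 0 but only 1 was called lower, with a median of -0.49. That gene was syp-2, which encodes part of the synaptonemal complex, with -0.960, 11.6, 15.2 and 2.67 on the low arrays and 34.1 to 97.6 (median 72.7) on the high arrays. The gene for another part of the same complex, syp-1, read 108 to 136 on the low arrays and 138 to 210 (median 177) on the high arrays, a difference of -0.56. For 71 genes of DNA replication and mitosis the median was -0.26, and the 2 called lower were the cyclin B genes cyb-2.1 and cyb-2.2. The mean of that list was 6.62 to 6.86 on the low arrays and 6.89 to 7.35 on the high arrays, without overlap. The cyb-2.2 value was 67.7, 93.9, 78.7 and 74.9 on the low arrays and 151 to 420 (median 195) on the high arrays. The 3 probe sets of cyb-1 disagreed, at -0.89, -0.20 and -3.73. The replication gene mcm-2 differed by -0.19. Germ granule genes had a median of -0.22, with glh-1 at -0.12 and pgl-1 at -0.15. The only one of 34 that was called lower was nos-1, which read 12 to 20.0 on the low arrays and 23.5 to 98.5 (median 47.9) on the high arrays. Among 33 histone genes 1 was lower. This was his-70, a histone H3 gene, which read 61.0 on BW1940 replicate 3 and 0 or less on the other 3 low arrays, against 134 to 178 on the high arrays. The other histone genes share probes in part, and the median of the list was -0.15.

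The yolk protein genes were not called, although their median difference of -2.69 was larger than that of the 83 sperm genes. Yolk proteins are made in the intestine of the adult hermaphrodite and taken up by oocytes. The vit-2 value was 68.3 and 7.13 on the low BW1940 arrays and 5.12 and 4.38 on the low LT186 arrays. On the high arrays it was 213, 437 and 405 in BW1940 replicates 2, 4 and 5, and 62.6, 25.1, 5.70 and 508 in LT186 replicates 1, 3, 5 and 6. LT186 replicate 5 thus had as little vit-2 as the low LT186 arrays, although its sperm genes were among the highest. The vit-6 value was 135, -4.0, 7.22 and 5.96 on the low arrays, against 12.4 to 1042 (median 542) on the high arrays, and LT186 replicate 5 was again the lowest of these. Summed over the 5 vit genes tested, the values were 40.0 to 641 on the low arrays and 56.1 to 4252 on the high arrays. Unlike for the sperm genes, BW1940 replicate 1 was above BW1940 replicate 3, for 4 of 5 vit genes, with a median log2 difference of -2.29 for replicate 3 over replicate 1. Members of the vit family share sequence, and the probe sets of vit-4 and vit-6 differed in size.

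Other intestinal genes did not follow the yolk genes. Of 52 intestine genes 2 were lower and 1 was higher, with a median of 0.22. The cathepsin B gene cpr-6 read 528, 871, 394 and 389 on the low arrays and 899 to 1731 (median 1022) on the high arrays. The transporter gene pgp-10 read 92.8, 51.8, 88.0 and 81.9 on the low arrays and 18.1 to 37.5 (median 19.7) on the high arrays. Its family members pgp-14 and pgp-5 differed by 1.79 and 1.09, with overlapping sets. The intestinal regulator elt-2 differed by 0.44 and the gut esterase gene ges-1 by -0.02, with overlapping sets. Below 0 lay 19 of the 52 genes.

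**Figure D3:**
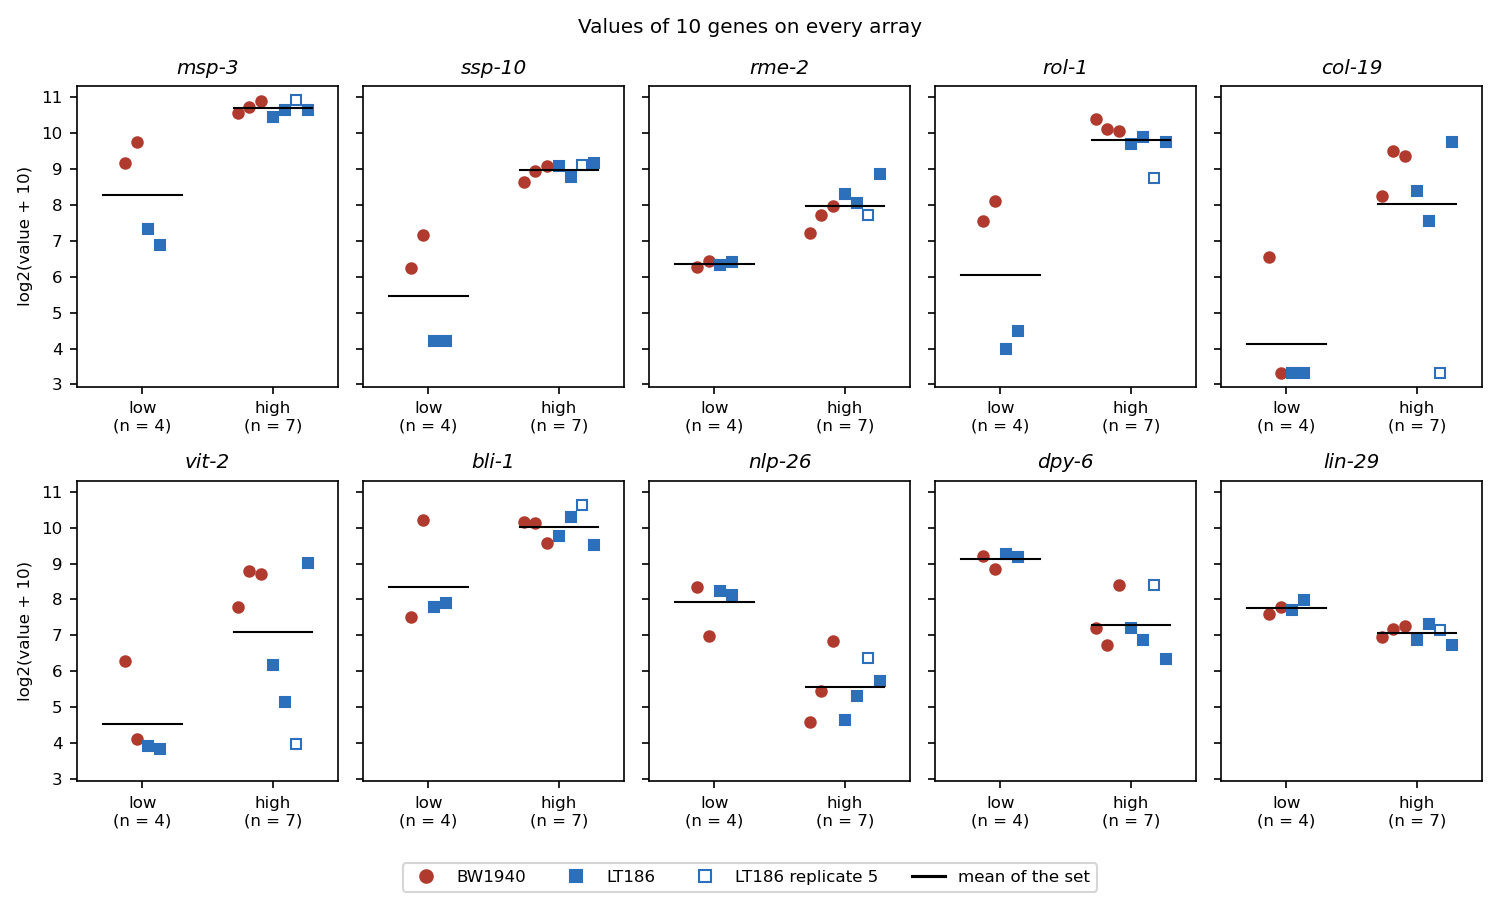
Values of 10 genes as log2(value + 10) on every array, with the 4 low arrays left and the 7 high arrays right in each panel. Circles are BW1940, squares are LT186, the open square is LT186 replicate 5 and lines are set means. The sets do not overlap for msp-3, ssp-10, rme-2, rol-1, nlp-26, dpy-6 and lin-29, and LT186 replicate 5 lies at the level of the low arrays for col-19 and vit-2.

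Cuticle collagens showed more than a single order of the arrays. Of 120 col genes 14 were lower and 1 was higher, with a median of -0.40. In 1 group no arrays overlapped. The col-49 value was 235 and 425 on the low BW1940 arrays and 24.9 and 28.6 on the low LT186 arrays, against 879 to 1821 (median 1345) on the high arrays. For col-63 the values were 159, 219, -0.292 and 30.1, against 550 to 1316 (median 1001), and for col-138 they were 188, 350, 29.2 and 9.13, against 610 to 1507 (median 1041). The rol-1 gene, a collagen gene whose mutants roll as adults, read 179 and 264 on the low BW1940 arrays and 5.84 and 12.6 on the low LT186 arrays, against 419 to 1324 (median 936) on the high arrays. In these 4 genes BW1940 replicate 3 was above BW1940 replicate 1 and the low LT186 arrays were lowest, as for the sperm genes. LT186 replicate 5 was the lowest high array in all 4.

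In another group LT186 replicate 5 joined the low arrays. The col-19 gene encodes a collagen of the adult cuticle. Its value was 83.6 and -13.4 on the low BW1940 arrays and -29.3 and -30.7 on the low LT186 arrays. On the high arrays it was 292, 721 and 645 in BW1940 and 327, 178, -2.31 and 858 in LT186, where -2.31 belongs to replicate 5. The col-60 value was 203, -0.622, -1.60 and -3.28 on the low arrays, and 41.7 on LT186 replicate 5 against 679 to 1210 on the other high arrays. The col-120, col-129 and col-184 genes gave the same picture, with 18.6, -24.5 and 26.3 on LT186 replicate 5. In these 5 genes BW1940 replicate 1 was the highest low array, the reverse of its place for sperm genes. Their differences of -4.01 to -4.99 were larger than the median of any sperm list, and none passed the overlap rule. By contrast, col-12 was level, at 1686 to 2391 on the low arrays and 1566 to 2900 on the high arrays.

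A further group of cuticle genes was high on BW1940 replicate 3. The bli-1 and bli-2 genes encode collagens of the struts of the adult cuticle. The bli-1 value was 171, 212 and 231 on 3 low arrays but 1186 on BW1940 replicate 3, against 718 to 1579 (median 1111) on the high arrays. The bli-2 value was 163, 756, 142 and 148 on the low arrays and 521 to 1199 (median 880) on the high arrays. The body-length collagen gene lon-3 read 122, 543, 131 and 142, against 373 to 997 (median 629). All 15 body-shape collagens outside the furrow group were below 0, with a median of -1.07, but only rol-1 was called, and BW1940 replicate 3 was above BW1940 replicate 1 in 13 of the 15. Furrow collagens, which form the circular grooves of the cuticle, had a median of -0.09. Their gene dpy-7 ranged over 94.7, 662, 224 and 222 on the low arrays and 0.0847 to 484 on the high arrays, so that it varied widely within both sets.

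Genes of molting and of the cuticle matrix were divided. Of 42 molting genes 4 were lower and none was higher. The mlt-10 value was 46.5, 153, 7.74 and 21.4 on the low arrays and 193 to 452 (median 218) on the high arrays. Its other probe set, at -2.16, was not called. The patched-related gene ptr-16 read 7.22, 21.4, 7.20 and 5.60 on the low arrays and 50.3 to 178 (median 112) on the high arrays. The protease gene nas-37, whose product acts in shedding of the old cuticle, read 254 on BW1940 replicate 3 but below 0 on the other 3 low arrays, against 31.3 to 333 on the high arrays. The oscillating regulators lin-42 and nhr-23 differed by -0.30 and 0.71 and were not called. Of 48 cuticlins and matrix proteins 2 were lower and 5 higher. The mucin-like gene dpy-6 read 586 and 454 on the low BW1940 arrays and 607 and 571 on the low LT186 arrays, against 70.4 to 327 (median 137) on the high arrays. The gene let-653, whose product shapes the matrix inside epidermal tubes, read 203, 303, 265 and 278 on the low arrays and 45.3 to 170 (median 78.3) on the high arrays. The cuticlin-like genes went both ways, with cutl-10 at 1.58 and cutl-15 at -1.72. The dyf-7 gene, which anchors growing dendrites, read 21.8, 32.7, 8.59 and 16.6 on the low arrays and 76.1 to 123 (median 101) on the high arrays. The matrix gene noah-1 was level, at 0.22.

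The hedgehog-related genes, a large nematode family of secreted proteins, and the patched-related genes, which encode membrane proteins, were taken as 1 list. Of its 68 members 9 were lower and 3 higher. The patched-related ptr class held 3 of the 9 and 1 of the 3, among 22 genes. The wrt-4 value was 227 and 346 on the low BW1940 arrays and 55.3 and 55.2 on the low LT186 arrays, against 494 to 1208 (median 961) on the high arrays. The wrt-6 value was 73.8, 274, 41.3 and 37.9 on the low arrays and 395 to 827 (median 568) on the high arrays. In the other direction grd-3 read 468, 339, 566 and 507 on the low arrays and 79.0 to 297 (median 97.1) on the high arrays. The ground-like gene grl-21 read 275 to 863 on the low arrays and 57.8 to 410 on the high arrays, with overlap. Calls in this list were thus found on both sides.

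Heterochronic genes, which time the passage between larval stages, were above 0 for 22 of 23 members, with a median of 0.68, but only 1 was called. This was daf-9, which encodes a cytochrome P450 that makes the steroid dafachronic acid. It read 42.9, 22.8, 49.7 and 58.0 on the low arrays and 10.5 to 18.8 (median 13.6) on the high arrays. The lin-29 gene, whose zinc-finger product starts the larval-to-adult switch of the epidermis, read 184 and 211 on the low BW1940 arrays and 199 and 242 on the low LT186 arrays, against 96.1 to 150 (median 132) on the high arrays. These did not overlap, with a difference of 0.70. The lin-46 gene read 39.0, 26.9, 47.6 and 45.5 on the low arrays and 11.5 to 22.6 (median 14.8) on the high arrays. The transcription factor gene hbl-1 read 115 to 200 on the low arrays and 51.8 to 110 (median 68.1) on the high arrays. The mean of the list was 6.81 to 7.29 on the low arrays and 6.28 to 6.66 on the high arrays. It did not overlap, and BW1940 replicate 3 was the lowest low array.

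Of 50 vulva and uterus genes 2 were higher and 1 was lower. The cell fusion gene eff-1 read 129, 133, 185 and 200 on the low arrays and 49.3 to 116 (median 73.0) on the high arrays, although its other probe set, at 0.93, did not pass the size. The cadherin gene cdh-3 read 106, 132, 130 and 141 on the low arrays and 44.2 to 95.3 (median 50.1) on the high arrays. The sqv-1 gene, for an enzyme of the sugar chains that inflate the vulval lumen, read 3.73 or less on all low arrays and 27.9 to 120 (median 63.4) on the high arrays. The growth factor gene egl-17 differed by -0.98 and lin-3 by -0.22.

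For muscle, neuron and growth genes the medians differed by small amounts. In 45 muscle genes the median was 0.16, with the body wall myosins unc-54 and myo-3 at 0.08 and 0.29. Differences were larger for myo-2 (0.86), myo-1 (0.79) and unc-89 (0.66), with overlapping sets, and 11 of the 45 genes lay below 0. The 1 gene called was tnt-4, a troponin T of the pharynx, which read 320 to 496 on the low arrays and 132 to 307 (median 199) on the high arrays. The median was 0.30 for 56 neuron genes and -0.08 for 62 ribosomal proteins, and none of either was called. Below 0 lay 6 of the neuron genes and 61 of the ribosomal proteins. The largest neuron differences were those of tdc-1 (-0.87), unc-104 (0.84), flp-15 (0.80) and snt-1 (0.73). Of 202 nuclear hormone receptors 29 were below 0 and 2 were called higher, with a median of 0.28. The mean of the list did not overlap, at 5.42 to 5.49 on the low arrays and 5.00 to 5.25 on the high arrays. The nhr-7 value was 34.5, 14.0, 34.8 and 37.9 on the low arrays and 6.07 or less on the high arrays. The nhr-148 value was 23.7 to 35.0 on the low arrays and 2.90 to 19.1 on the high arrays. The DBL-1 pathway, in which the secreted ligand binds the receptors DAF-4 and SMA-6 to activate Smad proteins, had a median of 0.44 over 16 genes, none called. Its list mean was 7.33 to 7.47 on the low arrays and 6.80 to 7.24 on the high arrays, without overlap. The Smad gene sma-3 read 138 and 113 on the low BW1940 arrays and 122 and 111 on the low LT186 arrays, against 42.7 to 83.0 (median 66.1) on the high arrays. The daf-4 gene read 176 to 232 on the low arrays and 101 to 164 (median 114) on the high arrays. Neither overlapped, with differences of 0.81 and 0.75.

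Among the metabolic and defence families described here, calls on both sides were found for the detoxification genes. Of 46 genes of fatty acid desaturases, elongases, lipases and acyl-CoA dehydrogenases 9 were lower and none was higher, with a median of -0.06. By class, 4 of 12 acdh, 3 of 12 lips and 2 of 8 elo genes were lower, and none of the 7 fat desaturase genes. The acyl-CoA dehydrogenase gene acdh-8 read 32.6, 78.1, 18.7 and 19.6 on the low arrays and 173 to 389 (median 311) on the high arrays. The lipase gene lips-3 read 46.2, 45.0, 24.9 and 25.5, against 87.9 to 378 (median 285). Of 151 genes of the C-type lectins, which bind sugars outside the cell, 10 were lower and none was higher. The lower share, 6.62%, was near the 7.22% of all genes, and the median of the list was 0.13. The clec-87 value was 94.8, 85.6, 34.3 and 27.0 on the low arrays and 258 to 859 (median 369) on the high arrays. Of 156 detoxification genes of the cytochrome P450, glutathione S-transferase and UDP-glucuronosyltransferase families 3 were lower (1.92%) and 9 higher (5.77%). Among all genes the shares were 7.22% and 1.27%. The gst-14 value was 69.8, 57.9, 115 and 103 on the low arrays and 7.29 to 36.4 (median 13.5) on the high arrays.

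Outside the sperm lists the most negative difference among genes with no overlap was that of ZK546.3, at -4.67. It read 113 and 199 on the low BW1940 arrays and below 0 on both low LT186 arrays, against 615 to 1185 (median 973) on the high arrays. The transthyretin-like gene ttr-14 read 88.7, 28.2, 0.307 and -0.801 on the low arrays and 167 to 809 (median 646) on the high arrays. The cytochrome c gene cyc-2.2 read 17.5, 117, -4.41 and 2.84, against 229 to 500 (median 340). The others of the 12 most negative were Y51H7C.13, F17E9.5, ule-4, msrp-6, rol-1, col-63, col-138, col-49 and dao-4. Of the 1032 lower genes 69 were on the sperm lists, 86 on another list and 877 on none. Whether the 877 include further sperm genes was not examined. Gene classes with a large share of lower members, picked here after their values were seen, were msrp (6 of 7), nsph (3 of 5), ttbk, the tau-tubulin kinases (4 of 7), and wht, ABC transporters of the white type (5 of 9). Genes known only by a sequence name made up 674 of the 1032, which is 12.3% of the 5487 such genes tested.

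Higher genes had smaller differences. The most positive among genes with no overlap was C34F11.8, at 2.45, with 105, 53.4, 118 and 122 on the low arrays and -1.91 to 32.0 on the high arrays. The neuropeptide-like gene nlp-26 read 318, 117, 293 and 268 on the low arrays and 14.2 to 104 (median 33.5) on the high arrays. The glutathione S-transferase gene gst-24 read 228, 158, 296 and 260 on the low arrays and 3.82 to 103 (median 32.6) on the high arrays. The peroxidasin gene pxn-2, which acts in basement membranes, read 79.8, 71.0, 92.3 and 98.5 on the low arrays and 0.241 to 43.1 on the high arrays. The others of the 12 were btbz-2, F18E9.3, F56D5.3, pana-1, arrd-15, idpp-15, ttr-8 and spig-17. Of the 182 higher genes 30 were on a list. The high array that came nearest to the low ones was BW1940 replicate 5 for 84 of the 182 and LT186 replicate 5 for 77.

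The arrays that bounded the lower genes were others in part. Of 1032 lower genes the highest low array was BW1940 replicate 3 for 813 and BW1940 replicate 1 for 181. The lowest high array was BW1940 replicate 5 for 490, BW1940 replicate 2 for 265 and LT186 replicate 5 for 156. A further 346 genes had a difference of -1 or below but overlapping sets. The overlap ended without BW1940 replicate 3 for 143 of them, without LT186 replicate 5 for 109, without BW1940 replicate 5 for 71 and without BW1940 replicate 1 for 40. For each of the other 7 arrays the number was 9 or less, and a gene counts under both arrays where leaving out either ends the overlap.

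Lower genes were unevenly spread over the chromosomes of the WBcel235 assembly. The X chromosome held 14.1% of the genes tested, 4.56% of the lower genes and 19.8% of the higher genes. Its 47 lower genes all lay outside the sperm lists, and ttr-14 and wrt-4 above are among them. Chromosome IV held 16.2% of the genes tested, 25.7% of the lower genes and 12.6% of the higher genes. As a share of each chromosome's genes, the lower genes ranged between 2.33% on X and 11.5% on IV. Outside the sperm lists the shares of the lower genes were close to these, at 4.89% on X and 25.2% on IV. That step left out only 69 of the 1032 lower genes, so the shares could change little. The remaining genes were not sorted into sperm and other genes. Genes with sperm functions are known to be scarce on the X chromosome of C. elegans. Neighbouring genes of a family are not independent.

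**Figure D4:**
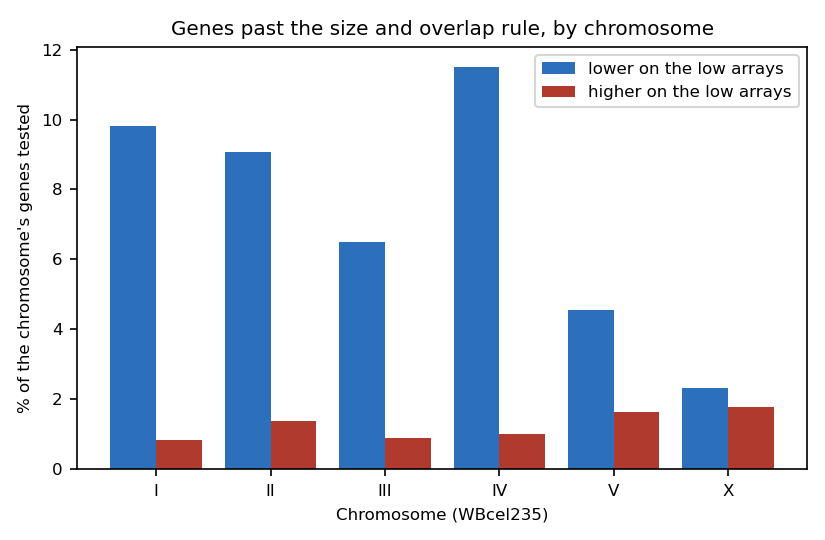
Share of the genes tested on each chromosome (percent, bars from 0) that were lower on the low arrays (left bars) or higher (right bars) by the size and overlap rule. The lower genes range between 2.33% on X and 11.5% on IV.

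Markers of males and embryos were read as a check on the material. The 10 male genes summed to 244 to 316 on the low arrays and 164 to 364 on the high arrays. Male markers lov-1 and pkd-2 were weak on all arrays, at 10.3 to 21.2 and 1.69 to 42.1 on the low arrays and 12.3 to 19.9 and 1.32 to 66.2 on the high arrays. The 17 embryo genes summed to 735 to 886 on the low arrays and 451 to 771 on the high arrays, and 1 was called higher. That gene, elt-3, made up a large part of the sums, so they rest on 1 gene to a large extent. The mean log2 value of the list overlapped, at 5.15 to 5.39 on the low arrays and 4.86 to 5.31 on the high arrays. The elt-3 value was 340, 298, 399 and 441 on the low arrays and 99.2 to 289 (median 168) on the high arrays. The early endoderm gene end-1 read 18.5 to 44.8 on the low arrays and 19.0 to 48.1 on the high arrays. The part of male and embryo transcripts in the results was not tested. RNA quality was not analysed here.

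The strains are a label that the choice of arrays did not use, and each set holds arrays of both, so the strain comparison can be tested beside the set. The targeted gene followed the labels within both sets. The sma-6 value was 99.9 and 128 on the low BW1940 arrays and 31.5 and 33.3 on the low LT186 arrays, and on the high arrays it was 82.4 to 115 in BW1940 and 26.5 to 33.6 in LT186. With the array set as a term, its log2 fold change of BW1940 over LT186 was 1.41 (adjusted p = 0.000150 by limma with the adjustment of Benjamini and Hochberg), and its low-minus-high difference was 0.15. The dbl-1 gene read 107 and 78.2 on the low BW1940 arrays and 68.2 and 79.5 on the low LT186 arrays, with overlap, and 54.9 to 93.8 in BW1940 and 40.8 to 54.8 in LT186 on the high arrays, without overlap. Its log2 fold change of 0.37 did not pass (adjusted p = 0.166 by limma). The other dbl-1 probe set read 48.3 and 56.7 on the low BW1940 arrays and 22.6 and 21.8 on the low LT186 arrays, and 20.1 to 62.0 in BW1940 and 14.6 to 28.6 in LT186 on the high arrays. Its log2 fold change was 0.77 (adjusted p = 0.0719 by limma), also in the direction of the label and not past the threshold.

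With the array set as a term, 613 of 18801 probe sets differed between the strains by limma at an adjusted p under 0.05 (3.26%). Without the term 191 did (1.02%), all of them among the 613. On the 7 high arrays alone the number was 45 (0.239%), of which 41 were among the 613. Of the 613, 410 were higher in BW1940 and 203 lower, but after quantile normalization 240 were higher and 273 lower, and after median centring 289 were higher and 225 lower. Of the 191, 129 were higher in BW1940 and 62 lower, against 82 and 87 after quantile normalization, and of the 45, 32 were higher and 13 lower, against 27 and 18. On the 4 low arrays alone none passed by limma, with 2890 at an unadjusted p under 0.05. No other tool was run.

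The larger count fell when LT186 replicates 2 and 4 were averaged, and also when most single arrays were left out. With the 2 averaged it was 202, of which 136 were higher in BW1940 and 66 lower. Leaving out LT186 replicate 2 gave 195 and leaving out LT186 replicate 4 gave 211. It was also lower without BW1940 replicate 1 (229), 2 (241) or 5 (392) and without LT186 replicate 1 (300), 3 (331) or 6 (327). With LT186 replicates 2 and 4 averaged, the fit without the set term gave 136 calls, against the 202 with it. Without the set term the count was 78 to 151 with 1 array left out, lowest without BW1940 replicate 3, and it fell by over 1.5 times for every array except BW1940 replicate 5 and LT186 replicates 4 and 5. On the high arrays alone it was 17 without BW1940 replicate 2, 23 without replicate 4, 17 without replicate 5, 19 without LT186 replicate 1 and 15 without replicate 3. The fit assumes that the low arrays vary like the high ones, and the set term itself was chosen from these arrays.

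**Figure D5:**
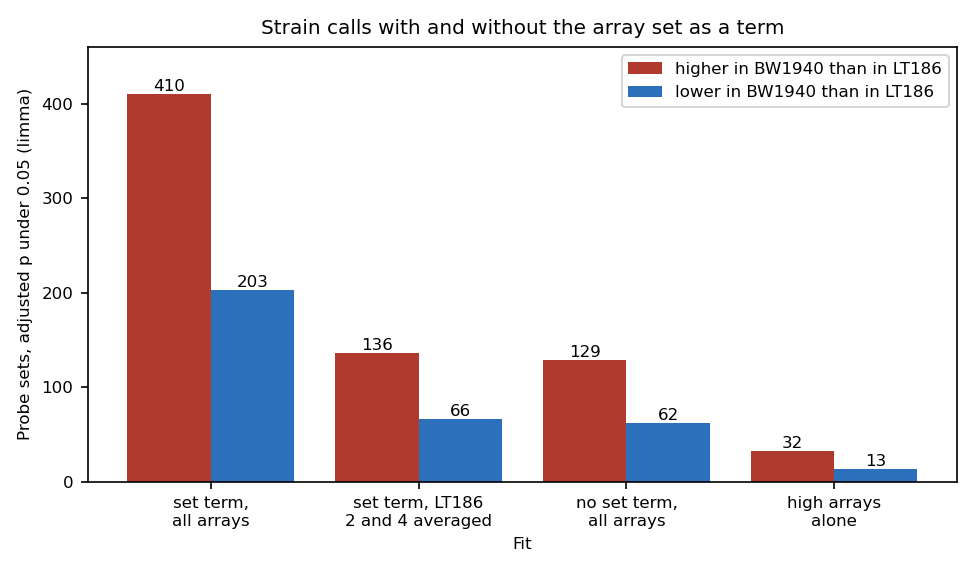
Number of probe sets that differed between the strains at an adjusted p under 0.05 by limma (bars from 0), higher in BW1940 left and lower right, for 4 fits. With the set term 410 were higher and 203 lower, and with LT186 replicates 2 and 4 averaged 136 were higher and 66 lower. The fit without the set term is shown for unaveraged arrays only.

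The median residual standard deviation over all probe sets tested was 0.259 with the set term and 0.314 without it. Over the 17315 probe sets called neither lower nor higher it was 0.249 with the term and 0.297 without it. Most strain calls were among these probe sets, with 601 (3.47%) with the term and 191 (1.10%) without it by limma. Of the 1237 lower probe sets 11 passed with the term and none without it, and of the 249 higher ones 1 passed with the term and none without it. The overlap rule, which pools the strains, leaves few probe sets with a large strain difference in these classes, so their low counts are set in part by how they were chosen. Among the 11 the log2 fold change was 0.65 for cpr-6 (adjusted p = 0.0319) and 1.19 for wrt-4 (adjusted p = 0.0480), neither of which passed with LT186 replicates 2 and 4 averaged (adjusted p = 0.0910 for cpr-6 and 0.120 for wrt-4). No msp, ssp, yolk or col-19 strain difference given above passed. For vit-5, which read 173 and 8.93 on the low BW1940 arrays and -6.58 and 4.05 on the low LT186 arrays, the log2 fold change was 3.18 (adjusted p = 0.0730).

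The 5 highest and 5 lowest strain differences past the test with the set term were in genes called neither lower nor higher, which the overlap rule, pooled over the strains, makes likely for any gene with a large strain difference. The scramblase gene scrm-4 had a log2 fold change of 2.90 (adjusted p = 4.49e-05 by limma) and a low-minus-high difference of -0.31. It read 159 and 213 on the low BW1940 arrays and 7.27 and 20.6 on the low LT186 arrays. On the high arrays it read 191 to 215 in BW1940 and 11.8 to 33.0 in LT186, so the strains did not overlap in either set. The C-type lectin gene clec-4 had a log2 fold change of 2.72 (adjusted p = 9.25e-06) and a low-minus-high difference of 1.07. It read 334 and 205 on the low BW1940 arrays against 90.0 to 112 on the high BW1940 arrays. In LT186 it read 24.0 and 23.1 on the low arrays, against 5.37 to 10.9 on the high arrays, so the sets did not overlap within either strain. The chemoreceptor gene srbc-15, at 2.74, and the lipase gene lips-6, at 2.70, also passed in that direction. The hedgehog-related gene wrt-1 had 3.53 (adjusted p = 0.0249) but varied within the low BW1940 arrays, at 66.9 and 619, and did not pass with LT186 replicates 2 and 4 averaged (adjusted p = 0.0721). In the other direction the saposin gene spp-12 was at -2.72, T10H10.2 at -2.04, the kinase gene gakh-1 at -1.90, cyts-1 at -1.65 and F26A3.7 at -1.61. Of these 5, cyts-1 alone was lost with the 2 arrays averaged (adjusted p = 0.0561).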

How the data were processed

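Each Affymetrix array received RNA of L4 animals, 5 arrays BW1940 RNA and 6 LT186 RNA. The deposited table holds a linear intensity for each probe set. The authors made these values with Microarray Suite 5 and Probe Profiler, with global scaling to a common level, and they were used here without further normalization. A single gene symbol was paired with 20766 of the 22548 probe sets, more than 1 symbol with 887 and no symbol with 895, and 20701 were found among the genes of WBcel235. A gene is given by its single-symbol probe set of highest mean.

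Negative values were raised to 0, and log2 of the value plus 10 was used. The fits took probe sets with at least 10 on at least 2 arrays. The low and high arrays, the 39 gene lists and the rules were chosen with earlier results of these data known. Low against high was described by a linear model with strain as the other term, without a test. Strains were compared by limma's moderated test (lmFit, eBayes; limma 3.58.1, R 4.3.3), called at a Benjamini-Hochberg adjusted p under 0.05. The number of arrays limits the precision. Genes named are, for each list, up to 4 with the largest difference (sperm lists: the highest mean) and a few standard members, the 12 most negative and 12 most positive without overlap, and the 5 highest and 5 lowest strain changes. Other settings tried were the value added before log2, the filter, quantile or median scaling, the size of a call, array weights, a replicate block, LT186 replicates 2 and 4 averaged and each array left out. Replicate numbers are not known to pair the strains.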

Additional observations from a re-analysis of the deposited data

Results flagged for a closer look

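Single arrays stood apart within a set for some of the genes above. The gap of the highest or lowest array to the next, as a share of the range of the set on the log2 scale, was compared with Dixon's critical value. Of 352 sets of values looked at, 31 passed. The chance rate of about 1 in 20 holds for independent values of a single group, and does not apply here. The low and high sets mix the strains, LT186 replicates 2 and 4 are nearly alike, and many genes were picked by their differences.

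Among the 4 low arrays BW1940 replicate 3 was high for ssp-35 (share 1.0), his-70 (1.0), nas-37 (1.0), syp-1 (0.96), mcm-2 (0.95), fog-3 (0.93), bli-2 (0.92), lon-3 (0.90), spe-39 (0.86), ptr-16 (0.86) and bli-1 (0.85), and low for pana-1 (0.94) and nhr-7 (0.89). BW1940 replicate 1 was high for col-19, col-60, col-129, col-184 and sqv-1 (1.0 each) and for vit-2 (0.90). A share of 1.0 arises where the other 3 arrays lie at or below 0.

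Among the 7 high arrays LT186 replicate 5 was low for col-120 (0.85), col-60 (0.82), col-129 (0.78), col-184 (0.71), col-19 (0.66), ttr-14 (0.66), ule-4 (0.64), rol-1 (0.59), lips-3 (0.59) and Y51H7C.13 (0.57). BW1940 replicate 5 was high for F18E9.3 (0.65). Among the 5 BW1940 arrays replicate 5 was low for gakh-1 (0.73), a gene near background on all 5. What sets these arrays apart was not tested.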

How the results depend on the processing

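The counts depended on the offset, the size of a call and the arrays entered. With an offset of 1, 422 probe sets were higher on the low arrays. With an offset of 50, 524 were lower and 84 higher, and strain calls were 945 with the set term and 366 without it. Without a filter on low values, strain calls without the term were 416. With a size of 0.5, 890 were higher, and with a size of 2, 528 were lower and 16 higher. At an adjusted p under 0.01 by limma, strain calls were 123 with the term, 59 without it and 16 on the high arrays, and with array weights they were 2902, 443 and 71. With LT186 replicates 2 and 4 averaged, they were 202 with the term and 136 without it. The replicate block gave 124 with the term and 5 without it, and the same arrays with no block gave 327 and 101 (this last fit was chosen after seeing the data). Same-numbered arrays of the strains correlated between -0.69 and 0.10 in their deviations, and between 0.03 and 0.32 with the set term removed, so the numbers are not known to pair them. With 1 array left out, higher probe sets numbered 215 to 497, lower ones 1194 to 1553, and strain calls 195 to 658 with the term, 78 to 151 without it and 15 to 46 on the high arrays. The cause of these shifts was not tested, except that leaving out arrays or averaging them reduces the samples in the fit.

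No called gene of those named changed the direction of its low-minus-high difference under these settings, and 5 list medians near 0 changed sign in some of them. Furrow collagens gave 0.04 after quantile normalization, 0.02 with all probe sets of a gene averaged and -0.14 to 0.15 with 1 array left out. Quantile normalization gave 0.04 for ribosomal proteins and 0.06 for heat shock and stress genes. It gave 0.02 for the list of desaturases, elongases, lipases and acyl-CoA dehydrogenases. Median centring gave 0.02 for the heat shock and stress genes. The respiratory chain gave -0.02 to 0.06 with 1 array left out. Values near or below 0 carry no order, so differences of weak genes are bounded by the offset.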
